A study of Mus musculus with 4 samples.

Results

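Cytosolic ribosomal protein genes were followed through 4 RNA-seq libraries of mouse shoulder capsule cells. Members were chosen by symbol alone: Rpl or Rps followed by a digit, or Rpsa, Rplp0, Rplp1 or Rplp2, leaving out the S6 kinase genes and symbols of pseudogenes. The rule found 86 of the 16416 genes in the deposited table. Of these, 77 form the core, with 46 genes for proteins of the large 60S subunit and 31 for proteins of the small 40S subunit. The other 9 are the paralogues and retrocopies Rpl7l1, Rpl22l1, Rpl32l, Rpl36al, Rpl37rt, Rpl39l, Rps27l and Rps27rt, and Rps19bp1, which encodes a binding partner of Rps19 and no ribosomal protein.

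The cells were synovial fibroblasts by label, grown out of joint capsule pieces 1 week after shoulder immobilization, a model of frozen shoulder, and used at passage 2. There were 4 groups with 1 library each: wild-type C57BL6/J cells, untransfected miR-26a -/- cells, miR-26a -/- cells that had received 10 nM Silencer Negative Control siRNA#1 for 24 h, and miR-26a -/- cells that had received 10 nM miR-26a mimic for 24 h. Both transfections used Lipofectamine RNAiMax, so the 3 groups other than wild type share the deletion and the 2 transfected groups share the reagent. The labels do not give the number of mice, and miR-26a itself was not analysed here, so the deletion was not checked on these values. The libraries held between 17598763 and 19392655 estimated counts.

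Ribosomes consist of ribosomal RNA and a copy each of most ribosomal proteins, so their genes need matched output, and many of their transcripts begin with a pyrimidine-rich tract through which the mTORC1 kinase controls their translation. Their transcripts are short and abundant in growing cells. A microRNA such as miR-26a pairs through its seed with sites in 3' untranslated regions (3' UTRs) and usually lowers the transcripts that carry them.

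The sequences that bear on these points come first. The mature microRNA, from RefSeq, is shown with its seed, bases 2 to 8, in capitals, and it is the same as the sense strand that the labels give for the mimic. Its complement, TACTTGA, was searched on the transcript strand in the 3' UTRs of the GENCODE M21 annotation of GRCm38. It was present in 2 of 84 members with a 3' UTR (2.38%) and in 1775 of 15715 other genes (11.3%), where the longest 3' UTR had a median of 166.5 bases in members and 1127 bases in the others. The 2 members were Rpl37, at base 395 of a 3' UTR of 504 bases, and Rps20, at base 2231 of a 3' UTR of 3167 bases. A gene counted if any of its annotated coding transcripts held the site. For each of these genes only the transcript with that 3' UTR did, and whether the cells use it was not tested. In both the site is followed by A, a form present in 2.38% of members and in 763 of the other genes (4.86%), and the 30 bases around each are shown with the site in capitals.
mmu-miR-26a-5p: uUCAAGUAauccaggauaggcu
Rpl37, chromosome 15: tttttaacattTACTTGAataaagccaagc
Rps20, chromosome 4: atggtatgagtTACTTGAaaggactctgag

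The start-site tract was taken as C followed by at least 4 bases that are C or T, on the gene's own strand. It began exactly at the annotated RefSeq start in 15 of the 66 members with an entry (22.7%). It did so in 366 of 12887 other genes of the table (2.84%) and in 813 of all 27025 genes with an entry (3.01%). Within 5 bases of the start it was found in 47.0% of members and in 23.5% of other genes. The following 30-base windows, 10 bases before the start and 20 from it on, give examples with a tract in capitals and, for Rpsa and Rpl41, members without it in this window. A match is a description of the letters and not evidence of use.
Rpl15, chr14:18270967-18270996, minus strand: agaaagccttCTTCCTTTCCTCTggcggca
Rpl35, chr2:39005112-39005141, minus strand: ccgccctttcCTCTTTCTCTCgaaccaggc
Rps6, chr4:86857348-86857377, minus strand: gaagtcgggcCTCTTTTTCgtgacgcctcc
Rps27, chr3:90213629-90213658, minus strand: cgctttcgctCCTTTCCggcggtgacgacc
Rps27rt, chr9:114982720-114982749, minus strand: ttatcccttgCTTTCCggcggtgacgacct
Rpsa, chr9:120127756-120127785, plus strand: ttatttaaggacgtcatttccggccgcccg
Rpl41, chr10:128549149-128549178, minus strand: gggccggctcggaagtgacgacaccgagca

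Before the results, the cell type label was set against its markers. All 17 fibroblast markers were above 0 in every library and their summed TPM (a level corrected for transcript length and library size) ranged from 15271.8 to 26208.7, highest in the wild-type library. All 20 macrophage markers were also above 0 in every library, summing to 24658.9 TPM in the wild-type library and to between 35155.4 and 36326.8 in the 3 miR-26a -/- libraries. The 20 mitosis markers summed to 223.0 TPM in the wild-type library and to 548.7, 552.1 and 471.2 TPM in the untransfected, negative-control and mimic libraries. Macrophage markers were higher by 1.2-fold in miR-26a -/- than in wild-type cells for 20 of 20 genes and fibroblast markers lower for 14 of 17, where 24.2% of all measured genes were higher and 23.4% lower. Adipocyte markers summed to between 681.4 and 851.6 TPM, but 6 of 8 measured were lower in miR-26a -/- than in wild-type cells, with Adipoq at 23.51 TPM in the wild-type library and at most 0.49 in the others, and Cidec at 0 in all 3 miR-26a -/- libraries. Schwann cell markers summed to between 441.7 and 675.8 TPM, with 5 of 8 measured lower. Endothelial markers summed to at most 11.9 TPM, with Tie1 at 0 in the 3 miR-26a -/- libraries, and skeletal muscle markers to at most 49.0 TPM, with 6 of 8 measured lower. Fewer cells of a type and less RNA per cell cannot be told apart in these bulk samples, and the part of cell mixture in the ratios of the members was not tested.

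Ribosomal protein transcripts were among the most abundant of the cells in all 4 libraries. The median level of the 77 core members was 1552.1 TPM in the wild-type, 1825.2 in the untransfected miR-26a -/-, 1788.2 in the library with negative control and 1652.3 in the mimic library. In each library 72 of the 77 lay above 500 TPM, and between 44 and 47 of the 100 most abundant transcripts were core members. The 40S members had a higher median level than the 60S members in each library, at 1861.4 against 1418.7 TPM in the wild-type library. The 86 members took 2.899% of all counts in the wild-type library (95% exact binomial interval 2.892 to 2.907), 3.622% in the untransfected miR-26a -/- library, 3.471% with the negative control and 3.246% with the mimic. Per length the share was larger, at 12.88, 14.58, 14.25 and 13.32% of summed TPM in the same order. The untransfected miR-26a -/- library was the highest and the wild-type library the lowest on both scales. Intervals here and below cover counting error only, since no group has a replicate and reads are not independent molecules.

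Levels differed widely between members. Rplp1, of the acidic stalk that recruits elongation factors to the 60S subunit, was the highest, at 4659.99, 5048.29, 5007.15 and 4910.54 TPM in the wild-type, untransfected, negative-control and mimic libraries. Its stalk partners Rplp0 and Rplp2 lay between 2231.35 and 2347.76 TPM and between 2479.12 and 3183.08 TPM. Next to Rplp1 in the wild-type library came Rps2, at the mRNA entry of the 40S subunit, with 3965.14 TPM, Rpl41, the smallest ribosomal protein, with 3467.79, Rpl12 with 3146.6 and Rps27 with 3061.46. Rplp1 was the highest core member in all 4 libraries, since no other exceeded 4522.54 TPM in any.

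The lowest core member was Rps6, the 40S protein phosphorylated by S6 kinases, at 38.48, 36.05, 35.26 and 35.94 TPM, from only 388.87, 397.84, 422.81 and 401.63 estimated counts. Its 4 values lie close together and far below the core median. Decimals in an estimated count can come from reads shared between features, and Rps6 is among the 12 members that have them, as are the pairs Rpl37 and Rpl37rt, and Rps27 and Rps27rt. Whether reads of Rps6 were assigned elsewhere was not tested. Rps15a, at 79.62 TPM in the wild-type library, and Rps20, at 249.23, were also low, yet they had 3432 and 7029 counts there. Their effective lengths in the deposited values were 4890 and 3200 bases, against a core median of 483.9 bases, so their low TPM goes with a long assumed transcript. Rpl22 and Rpl21 completed the 5 lowest, with 155.39 and 390.75 TPM.

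**Figure D1:**
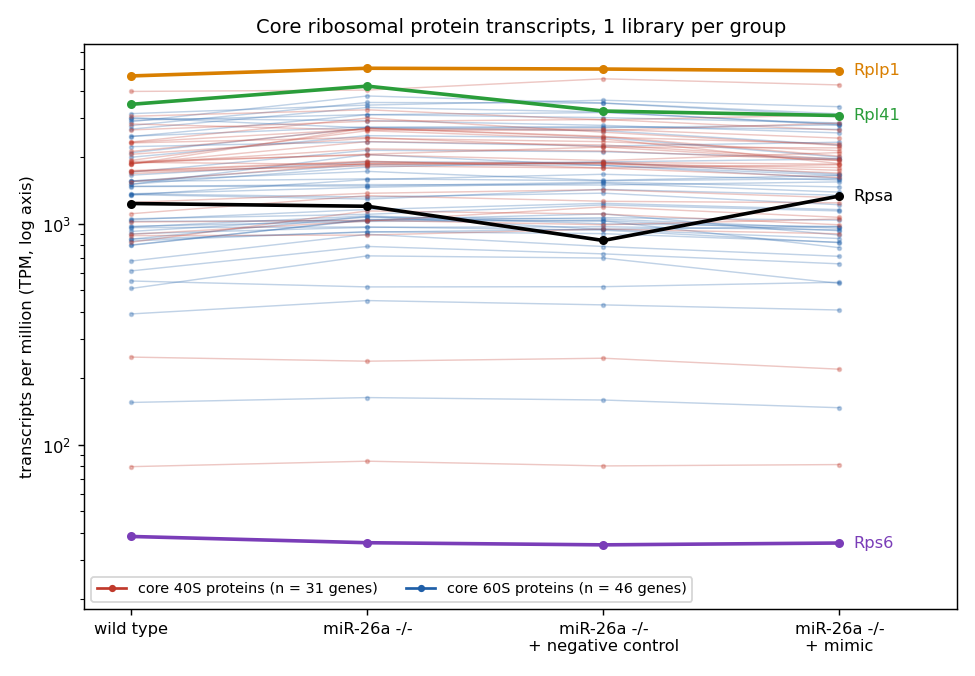
Level of each of the 77 core ribosomal protein genes in the 4 libraries, in TPM on a log axis, with a line per gene and no error bars because each group is 1 library. Of the 77 genes 72 lie above 500 TPM in every library, Rpsa dips to 839.64 TPM in the negative-control library, and Rps6 is the lowest line, at 38.48 TPM or less.

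The first comparison set untransfected miR-26a -/- cells against wild-type cells. Ratios are log2 ratios of counts scaled by the trimmed mean of M-values (TMM), and a gene counted as measured where 1 or both libraries reached 1 CPM (counts scaled to library size), as 84 of the 86 members did in each comparison. Core members were higher in the miR-26a -/- library by a median of 0.30 on the log2 scale (1.24-fold), from -0.01 to 0.75 and with quartiles of 0.21 and 0.50. The medians of the 40S and 60S members were equal, at 0.30. Of the 77, 76 had a ratio above 0, where 51.2% of all measured genes did. A gene was called by the 1.2-fold rule if its ratio reached 1.2-fold (0.26 on the log2 scale) and its counting interval excluded 0. By this rule 47 core members were higher, against 24.2% of all measured genes, and 0 were lower, against 23.4%. The median of all measured genes was 0.01.

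Rps29, a zinc-binding 40S protein, had 2407, 4029, 3768 and 2930 counts in the wild-type, untransfected, negative-control and mimic libraries. Its TPM were 1861.39, 2709.80, 2484.14 and 2020.75, so all 3 miR-26a -/- libraries lay above wild type. Its ratio of untransfected miR-26a -/- to wild type was 0.75 (95% interval 0.68 to 0.83). Rps21 followed with 0.66 (0.58 to 0.73), Rpl37, which carries the miR-26a seed site shown above, with 0.64 (0.57 to 0.71), Rpl36al with 0.62 (0.51 to 0.72) and Rpl37a with 0.61 (0.56 to 0.67). At the other end Rpl13a, known for a role in interferon-dependent silencing of translation, was at -0.01 (-0.04 to 0.02), Rps6 at 0.04 (-0.16 to 0.25), Rpl15 at 0.05 and Rps20, the other member with a seed site, at 0.07 (0.02 to 0.12). The lowest of all measured members was Rpl22l1, at -0.14 (-0.26 to -0.02). The interval of Rps29 and that of Rpl13a lie apart, and the spread between cultures is not known. In TPM the core members Rpl3, Rpl7, Rpl13a, Rpl15, Rpl39, Rps6, Rps9, Rps20, Rps26 and Rpsa were lower in the miR-26a -/- than in the wild-type library, with Rps26, for example, at 2648.37 against 2825.56 TPM and a ratio on scaled counts of 0.10.

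The ratio followed the transcript length that the authors' values imply. Other genes of less than 1000 bases, none of them members, had a median of 0.27 in the same comparison, and other genes at 200 TPM or more in either library had a median of 0.16. By bins of effective length, the other genes had medians of 0.44 below 300 bases, 0.33 from 300 to 500, 0.31 from 500 to 700, 0.23 from 700 to 1000 and 0.09 from 1000 to 2000 bases. Core members of the same bins had medians of 0.50 (23 genes), 0.30 (19 genes), 0.33 (12 genes), 0.24 (10 genes) and 0.15 (11 genes). Spearman's rho between length and ratio was -0.57 over the 77 core members and -0.23 over 12719 other genes, given as a description. After the median of the other genes in its length bin was taken from each gene, the core median was 0.03, 7 core members were higher by the 1.2-fold rule and 2 were lower, where 21.5% and 23.0% of all measured genes were. The 7 were Rpl11, Rpl31, Rpl37, Rpl37a, Rps15a, Rps24 and Rps29, and the 2 were Rpl39 and Rps26. The length bins were chosen after the data had been seen, and what makes short transcripts differ between these libraries was not tested.

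**Figure D2:**
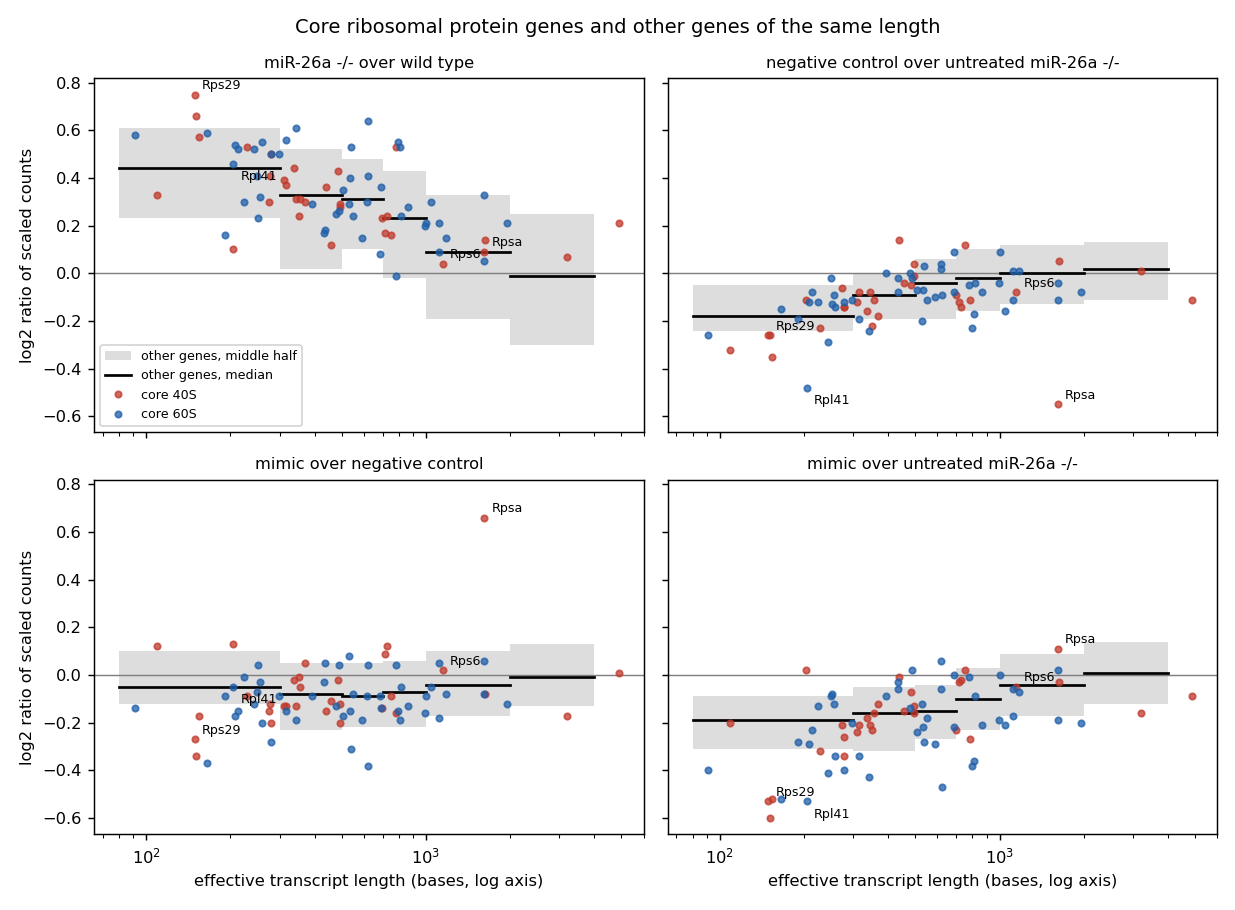
Log2 ratio of scaled counts against effective transcript length (log axis) in 4 comparisons of libraries, with a point per core member, black bars for the median and grey blocks for the interquartile range of the other genes in each length bin. In the comparison of miR-26a -/- with wild type both the members and the bars fall from left to right, and Rpsa stands apart in both comparisons with the negative-control library.

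By role, the members of the stalk had ratios of 0.21 for Rplp0, 0.30 for Rplp1 and 0.52 for Rplp2 in this comparison. Less the medians of their length bins these were 0.13, -0.13 and 0.08, in another order. Rpl5 and Rpl11, which with 5S ribosomal RNA form the particle that binds the p53 regulator Mdm2, were at 0.20 and 0.53. Rpl11 had 4328, 6217, 6204 and 5096 counts in the wild-type, untransfected, negative-control and mimic libraries, and it was the lowest in the wild-type library. Rps27a, made as a fusion with ubiquitin, was at 0.43, or 0.11 less the median of its length bin, and Fau, which encodes a ribosomal protein fused to a ubiquitin-like protein and lies outside the symbol rule, was at 0.49. On the TPM scale the median of all measured genes moved to -0.11 and that of core members was 0.14, so core members stood 0.25 above all genes there and 0.29 above them on the scaled counts. By log2(TPM + 1) 23 core members, not 47, were higher by the 1.2-fold rule, where 14.6% of all measured genes were.

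**Figure D3:**
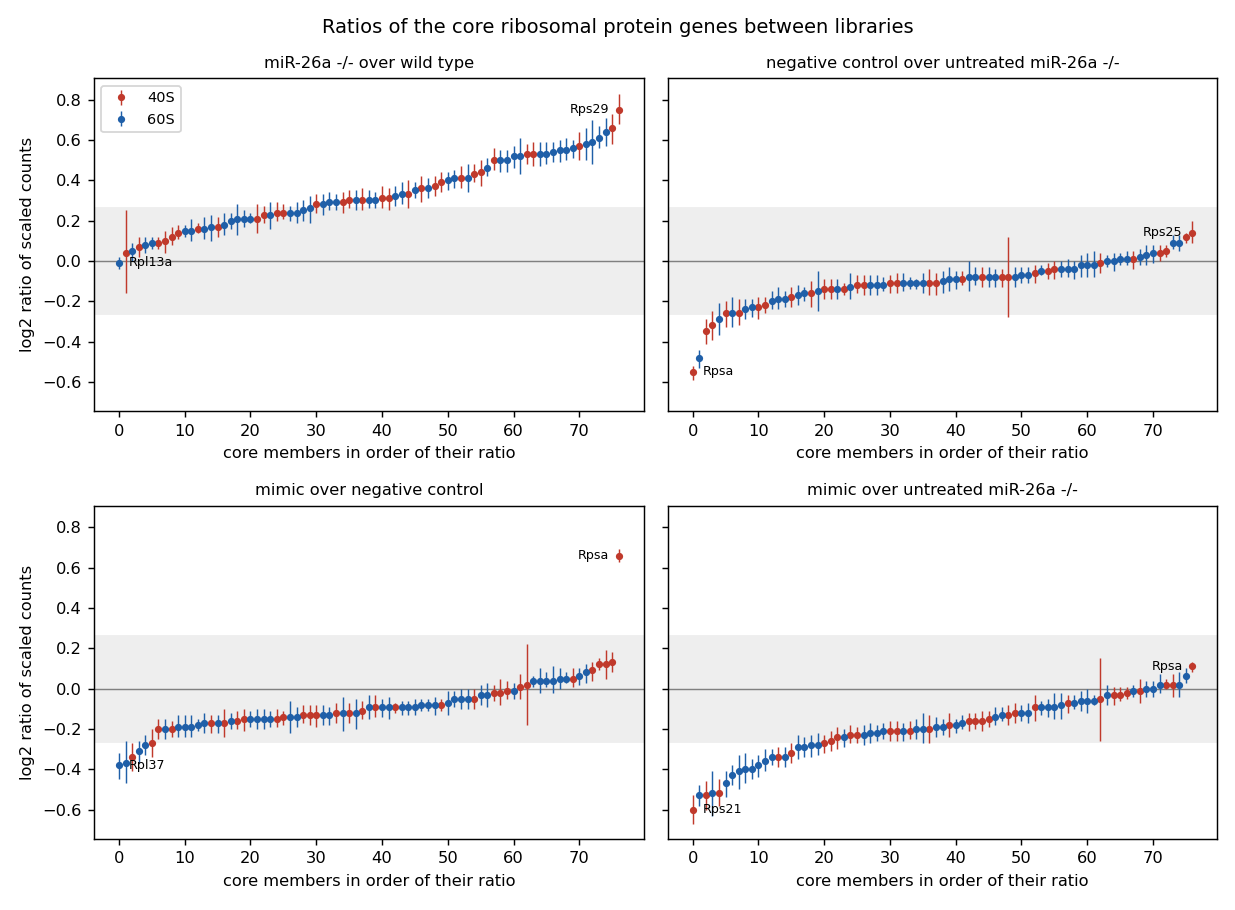
Log2 ratios of the 77 core members in 4 comparisons of libraries, in order of their ratio, with 95% counting intervals as bars, 40S members in red and 60S members in blue, and grey for ratios below 1.2-fold. In the first panel 76 of 77 lie above 0 on scaled counts, though 10 of the core members were lower in TPM, and in the others most lie below 0 with Rpsa at 1 end.

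On scaled counts the negative-control library had slightly lower ribosomal protein transcripts than the untransfected one, as it had for other short genes. Against untransfected miR-26a -/- cells the core median was -0.10 (0.931-fold), from -0.55 to 0.14, and 12 of 77 were above 0, where 50.6% of all measured genes were. By the 1.2-fold rule 5 core members were lower, against 8.55% of measured genes, and 0 were higher, against 5.32%. The 5 were Rpsa, Rpl41, Rps28, Rps27 and Rpl36a. Of all measured genes the median was 0.00, and of the other genes below 300 bases it was -0.18, where core members had -0.14. Less the median of the length bin, the core median was -0.02, Rpsa and Rpl41 were the core members lower by the rule, where 8.59% of all measured genes were, and 0 were higher, where 5.04% were. By log2(TPM + 1) the core median was -0.03, with 0.04 for all measured genes, and 2 core members were lower, where 5.39% of all measured genes were.

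Rpsa, the 40S protein also known as the laminin receptor precursor, had the ratio farthest from 0 of the core members in both comparisons with the negative-control library. It had 17555 counts in the wild-type, 18579 in the untransfected, 14180 with the negative control and 20969 with the mimic. In TPM these were 1234.10, 1199.11, 839.64 and 1333.85, so only the negative-control library was low. The ratio was -0.55 (-0.59 to -0.52) for negative control over untransfected cells and 0.66 (0.63 to 0.69) for mimic over negative control, but 0.09 for miR-26a -/- over wild type and 0.11 for mimic over untransfected cells. The negative-control library enters both of the larger ratios. Rpsa has an effective length of 1615 bases, and the other genes of its length bin had medians of 0.00 and -0.04 in these comparisons.

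Rpl41 showed another pattern. It had 6198, 8486, 6799 and 6153 counts and 3467.79, 4190.13, 3232.66 and 3083.93 TPM in the wild-type, untransfected, negative-control and mimic libraries. The untransfected miR-26a -/- library alone was high, and the other 3 lay close together in TPM. Its ratios were 0.46 over wild type, -0.48 (-0.53 to -0.44) for negative control over untransfected cells, -0.05 for mimic over negative control and -0.53 (-0.58 to -0.48) for mimic over untransfected cells. Rps25, a 40S protein needed by some internal ribosome entry sites, was the highest core member after the negative control, with 0.14 (0.09 to 0.20) over untransfected cells. Rps2 followed with 0.12 and Rpl6 with 0.09, and of the other members Rps19bp1 had 0.33 (0.08 to 0.58) and Rpl7l1 0.14.

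The mimic was then compared with the negative control, the comparison in which both libraries were transfected. The core median was -0.09 (0.936-fold), from -0.38 to 0.66, and 16 of 77 were above 0, where 48.5% of all measured genes were. By the 1.2-fold rule 6 core members were lower, against 7.94% of measured genes, and 1 was higher, Rpsa, against 9.66%. The 6 were Rpl29, Rpl30, Rpl36, Rpl37, Rps21 and Rps29. The medians of the other genes lay between -0.09 and -0.04 in the length bins up to 2000 bases. Less these medians the core median was -0.04, Rpl36, Rpl37 and Rps21 were lower by the rule, where 7.29% of all measured genes were, and Rpsa was higher, where 9.69% were.

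Rpl37 was the lowest core member in this comparison. It had 2781.03, 4292.71, 4521.10 and 3246.84 counts and 509.45, 715.23, 699.10 and 536.97 TPM in the wild-type, untransfected, negative-control and mimic libraries. The 2 miR-26a -/- libraries without mimic were high and the wild-type and mimic libraries low. The falling order untransfected, negative control, mimic and wild type held for 45 of the 77 core members on scaled counts. In TPM it held for 26 of them. The ratio of mimic to negative control for Rpl37 was -0.38 (-0.45 to -0.32). Rps20, with the other seed site, had 7029, 7315, 8253 and 6844 counts and 249.23, 238.82, 246.32 and 219.73 TPM in the same order. The mimic library was the lowest for Rps20 on the TPM scale, and its ratio of mimic to negative control was -0.17, where the median of other genes from 2000 to 4000 bases was -0.01. Rpl36 and Rps21, which lack the site, had ratios of -0.37 (-0.47 to -0.26) and -0.34 (-0.41 to -0.27). Whether the sites act in these cells was not tested.

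The comparison of miR-26a -/- with wild type and that of mimic with negative control share no library. Across the 77 core members their ratios ran in opposite directions, with Spearman's rho of -0.53, and of -0.52 less the medians of the length bins. Over 12355 other measured genes rho was -0.13, and over the 1135 of them below 1000 bases it was -0.07. These other genes were admitted from 1 CPM, so counting error weighs more in many of their ratios than in those of the members. Other genes of similar level were not compared, so the values do not show that the opposite directions are particular to the members. The members share high levels, short transcripts and related base composition, and they are not independent replicates, so these values are a description. Examples are Rps29 (0.75 and -0.27), Rps21 (0.66 and -0.34) and Rpl36 (0.59 and -0.37) at one end and Rps26 (0.10 and 0.13) and Rps4x (0.24 and 0.12) at the other.

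Against untransfected miR-26a -/- cells, the mimic library had a core median of -0.19 (0.877-fold), from -0.60 to 0.11, and 7 of 77 were above 0, where 50.4% of all measured genes were. By the 1.2-fold rule 22 core members were lower, against 8.13% of measured genes, and 0 were higher, against 6.37%. The lowest were Rps21 at -0.60 (-0.67 to -0.53), Rpl41 and Rps29 at -0.53, and Rpl36 and Rps28 at -0.52. The other genes had medians of -0.19 below 300 bases, -0.16 from 300 to 500, -0.15 from 500 to 700 and -0.10 from 700 to 1000 bases, and core members of these bins -0.29, -0.15, -0.22 and -0.14. Less the medians of the length bins the core median was -0.04, 8 core members were lower, where 7.35% of all measured genes were, and 0 were higher, where 5.86% were. The 8 were Rpl31, Rpl36, Rpl37, Rpl37a, Rpl41, Rps21, Rps28 and Rps29. By log2(TPM + 1) 13 core members were lower by the 1.2-fold rule, where 4.61% of all measured genes were, and the core median was -0.12. The untransfected miR-26a -/- library is shared by 3 of the 4 comparisons. On scaled counts it was the highest library for 60 of the 77 core members and the wild-type library was the lowest for 66, whereas in TPM these numbers were 41 and 52.

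By a 2-fold rule of the same form no core member was called in any comparison. Of all measured genes 12.9% were called in the comparison of miR-26a -/- with wild type, 1.01% in that of negative control with untransfected cells, 1.21% in that of mimic with negative control and 0.734% in that of mimic with untransfected cells. Of the other members Rpl37rt and Rpl39l were higher in miR-26a -/- than in wild-type cells, and Rpl37rt was lower with the mimic against both references. Both genes lie below 5 CPM in every library, so these calls are lost at that minimum, and the call of Rpl37rt for mimic over untransfected cells is also lost by log2(TPM + 1).

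Paralogues and retrocopies were read beside their parent genes, because near-identical copies can share reads. Rpl37rt is a retrotransposed copy of Rpl37. Its GENCODE transcripts match Rpl37 in 343 of 344 aligned bases, with 256 identical bases in a row in that transcript, and none of them holds TACTTGA. It had 3.97, 26.29, 29.90 and 11.16 estimated counts in the wild-type, untransfected, negative-control and mimic libraries, at most 0.945% of the TPM of the pair. The retrocopy and its parent were high and low in the same libraries. Its ratios were 2.48 (1.18 to 4.69) for miR-26a -/- over wild type and -1.25 for mimic over negative control, and they cannot be told apart from reads of Rpl37 that were assigned to the copy. Rps27rt is identical to Rps27 over all 255 coding bases and 341 of 341 aligned transcript bases, and it had 0, 4.69, 0 and 4.34 counts. Rpl32l had 0, 0, 1 and 2 counts. These 2 genes were below 1 CPM and no ratio is given for them.

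The start of the coding sequence, bases 1 to 60 from the first coding base in GENCODE M21, shows how far the expressed paralogues can be told from their parents, with differing bases in capitals. The Rps27 line is written for its comparison with Rps27l, and the sequence of Rps27rt is the same as that of Rps27 here.
Rpl36al: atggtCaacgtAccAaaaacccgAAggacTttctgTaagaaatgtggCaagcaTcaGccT
Rpl36a: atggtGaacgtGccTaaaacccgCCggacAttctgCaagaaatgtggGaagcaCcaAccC
Rpl39l: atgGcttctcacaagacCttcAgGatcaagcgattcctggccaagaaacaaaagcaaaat
Rpl39: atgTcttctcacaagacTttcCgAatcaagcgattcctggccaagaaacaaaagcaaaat
Rps27l: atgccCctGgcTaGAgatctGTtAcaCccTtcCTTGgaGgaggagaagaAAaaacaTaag
Rps27: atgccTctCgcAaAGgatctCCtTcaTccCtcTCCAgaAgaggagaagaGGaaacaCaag

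These stretches differ by 11, 4 and 18 bases, and over the whole coding sequence the pairs were 87.9, 85.3 and 62.3% identical. Rpl39l, a paralogue best known from the testis, had 20, 48, 53 and 68 counts against 4970, 5520, 5435 and 4773 of Rpl39. It was lowest in the wild-type library and highest in the mimic library. Its ratio was 1.23 (0.49 to 2.10) for miR-26a -/- over wild type and 0.45 (-0.08 to 1.00) for mimic over negative control. Its longest stretch of identity with Rpl39 is 38 bases.

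By counts the 60S protein gene Rpl22 exceeded its paralogue Rpl22l1 in each library. Rpl22 had 2679, 3067, 3263 and 2802 counts and Rpl22l1 1208, 1089, 1285 and 863, in the order given below. In TPM, which depends on an assumed transcript length, Rpl22l1 held the larger part of the pair. It stood at 571.31, 457.77, 516.07 and 366.51 TPM in the wild-type, untransfected, negative-control and mimic libraries, and Rpl22 at 155.39, 163.48, 159.37 and 147.08 TPM. The share of Rpl22l1 in the pair's TPM was 78.6, 73.7, 76.4 and 71.4%, lowest in the mimic library. Its ratio of mimic to negative control was -0.48 (-0.60 to -0.35), the lowest of the measured members with at least 100 counts. The coding sequences of this pair are 67.5% identical.

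Rpl36al took a share of the TPM of its pair with Rpl36a of 37.5, 39.2, 41.2 and 44.2% in the same order of libraries. The share was lowest in the wild-type and highest in the mimic library, while its level was highest in the untransfected library, at 694.14 TPM. Rps27l, a p53 target gene, took 15.1, 16.6, 19.3 and 16.8% of its pair with Rps27. Rpl7l1, a 60S assembly relative of Rpl7, took between 5.37 and 5.68%, with little difference between libraries. Rps19bp1, which binds the deacetylase Sirt1, had 204, 227, 320 and 232 counts, and the negative-control library was the high one. Its ratio of mimic to negative control was -0.37 (-0.62 to -0.12).

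**Figure D4:**
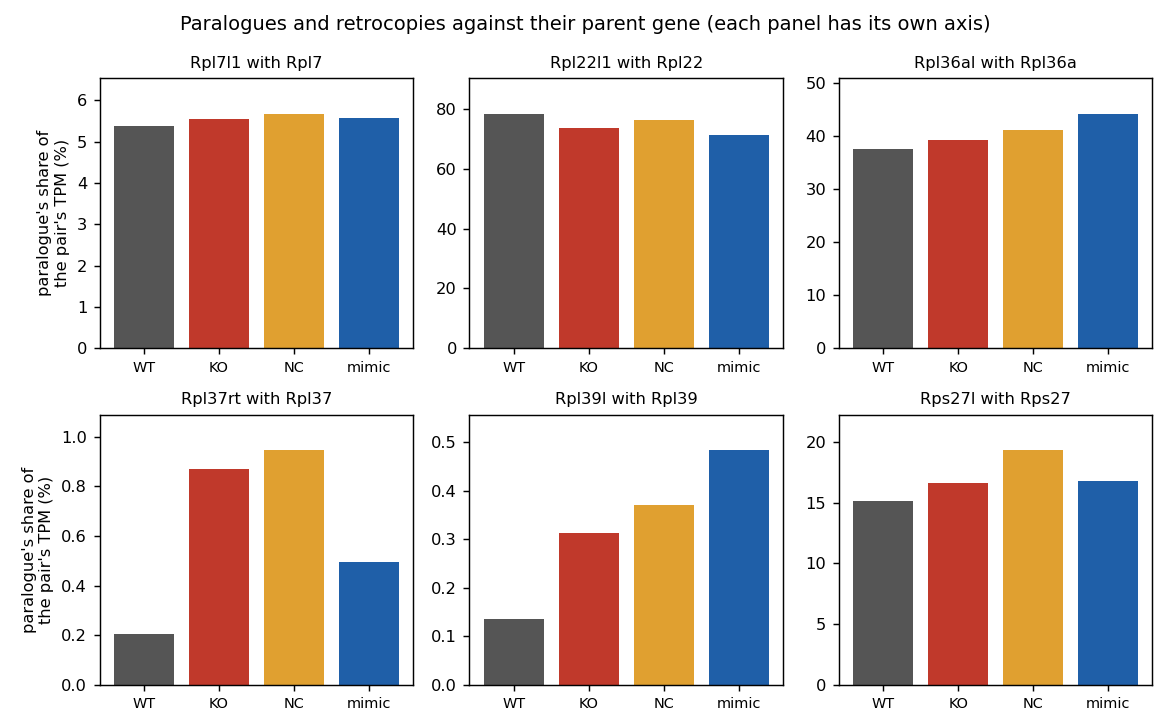
Share of a pair's TPM held by the paralogue or retrocopy in the wild-type (WT), untransfected miR-26a -/- (KO), negative-control (NC) and mimic libraries, with a bar per library from 0 on an axis of its own per panel and no error bars. Rpl22l1 holds over 70% of its pair's TPM, and the share of Rpl37rt stays below 1%.

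Other genes of ribosome production were described from lists. The 78 mitochondrial ribosomal protein genes had a median of 0.31 for miR-26a -/- over wild type, with 45 higher and 1 lower by the 1.2-fold rule (24.2% and 23.4% of all measured genes), and of 0.10 less the median of their length bins. For mimic over negative control their median was -0.12, or -0.06 less that of their length bins, with 0 higher and 10 lower (12.8%), where 9.66% and 7.94% of all measured genes were. Mrps15, of the small mitochondrial subunit, had the largest ratio over wild type, 0.70 (0.48 to 0.93). A list of 25 translation factors and related genes, such as Eef1a1 and Tpt1, had a median of 0.23 over wild type, or 0.06 less that of their length bins. It was drawn up as genes of the start-site tract type, and the tract was not checked in them separately. Of the 25, 7 were higher and 1 lower, near and below the shares of all measured genes, 24.2% and 23.4%. It includes Fau, and its lowest member was Eif3e, a subunit of an initiation factor, at -0.35.

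Genes that build ribosomes have longer transcripts than the members, with a median effective length of 2781.9 bases for 40S assembly and 2365.9 for 60S assembly. Of 39 genes for 40S assembly 13 were higher and 0 lower in miR-26a -/- than in wild-type cells, with a median of 0.16. Pno1, which acts late in 40S assembly, had the largest ratio, 0.65 (0.50 to 0.79). Of 41 genes for 60S assembly 14 were higher and 0 lower, with a median of 0.18, and Rpf1 had 0.49. Of 11 proteins of small nucleolar ribonucleoproteins, which guide ribosomal RNA modification, 5 were higher and 0 lower, with a median of 0.25, and Nhp2 had 0.63. Of 16 RNA polymerase I genes 5 were higher and 0 lower, with a median of 0.17. Against 24.2% of all measured genes, the share higher was 33.3% for 40S assembly, 34.1% for 60S assembly, 45.5% for small nucleolar ribonucleoproteins and 31.2% for RNA polymerase I, and 23.4% of all measured genes were lower. Less the medians of their length bins these lists had medians of 0.16, 0.16, 0.16 and 0.08 in the order named.

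For mimic over untransfected cells, where the core median was -0.19, or -0.04 less the medians of the length bins, the lists for 40S assembly, 60S assembly, small nucleolar ribonucleoproteins and RNA polymerase I had medians of 0.11, 0.04, 0.06 and -0.03. By the 1.2-fold rule 0, 2, 0 and 3 of their genes were lower, where 8.13% of all measured genes were, and 3, 4, 0 and 1 were higher, where 6.37% were. Mdn1, the giant ATPase of 60S assembly, was among the lower genes of its list with the mimic. It was at -0.33 (-0.44 to -0.23) against untransfected cells and at -0.52 (-0.62 to -0.42) against the negative control. Of 28 measured regulators around mTORC1 and S6 kinase 7 were higher and 3 lower for miR-26a -/- over wild type, with a median of 0.10. The share higher is near the 24.2% of all measured genes, and the share lower, 10.7%, is below their 23.4%. The kinase gene Rps6ka1 was at 1.39 and the mTOR inhibitor gene Deptor at -1.18. The 14 ribosome rescue genes had a median of 0.05 in the same comparison, with 2 higher and 2 lower. Either share is 14.3%, below the 24.2% and 23.4% of all measured genes.

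**Figure D5:**
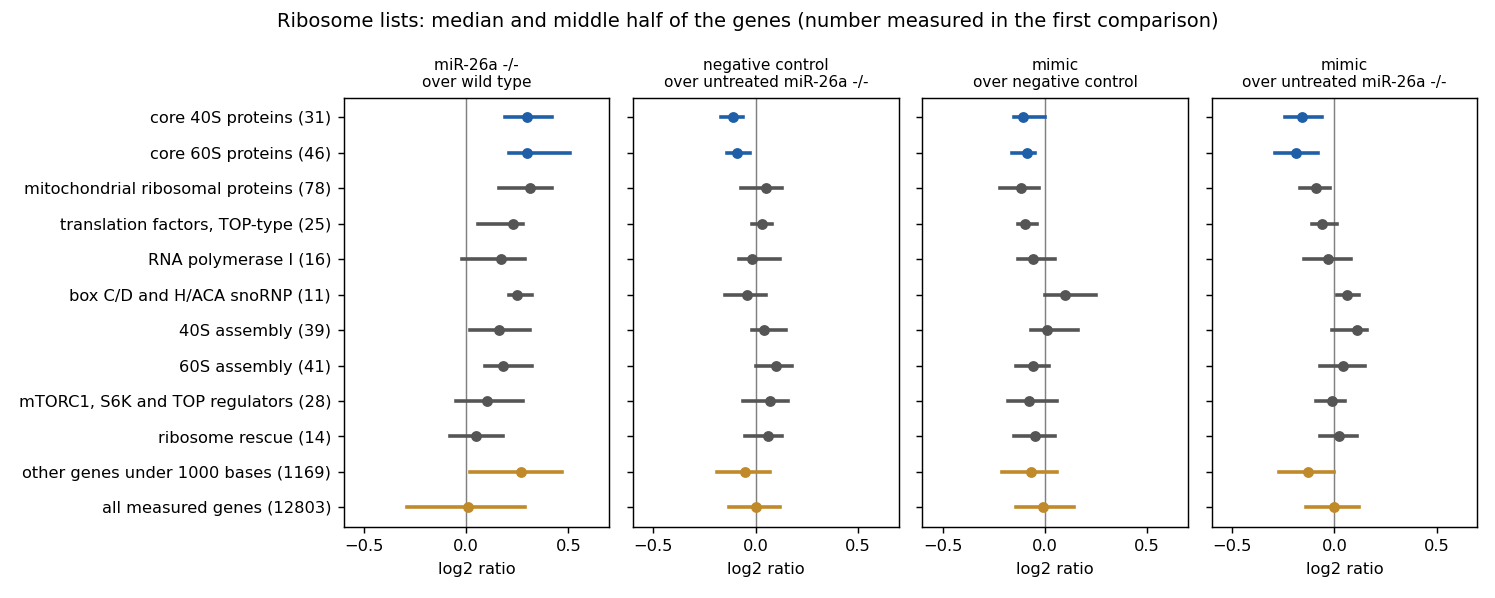
Median (point) and interquartile range (bar) of the log2 ratio of scaled counts for core 40S and 60S members, lists of ribosome-related genes, other genes under 1000 bases and all measured genes, in 4 comparisons of libraries. In the first panel the members, the mitochondrial ribosomal proteins and the other short genes lie near 0.3, and in the last the members lie lowest.

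The authors' deposited table of comparisons holds log2 ratios of unscaled counts with p-values and false discovery rates of a Poisson test on the reads of 2 libraries, which compares those libraries and not the conditions. In the authors' deposited table the core median was 0.29 for miR-26a -/- over wild type, 0.06 for negative control over untransfected cells and -0.19 for mimic over negative control, where all genes had medians of 0.00, 0.16 and -0.10. Relative to all genes these have the same signs as the medians on scaled counts. The false discovery rate in the authors' deposited table was under 0.001 for 75, 34 and 52 of the 77 core members in these comparisons (97.4, 44.2 and 67.5%), and 0 of them reached 2-fold. Over all genes with a false discovery rate in the authors' deposited table the shares were 35.6%, 9.87% and 12.8%. Such a test calls abundant genes more readily, and among other genes with at least 200 TPM in either library the shares were 83.9, 46.0 and 48.5%.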

How the data were processed

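The authors deposited a gene table with estimated counts, FPKM and TPM for 4 libraries, per the file headers. A further deposited signal, counts divided by a size factor, was not used. A second deposited table gives log2 ratios with a p-value and a false discovery rate per gene. Tools and builds in the submitters' processing notes are HISAT, Bowtie2, FastQC, GRCm38.p6 and mm10, without roles. For the quantifier, annotation and strand setting: not given in the sources used here. Between 4.99% and 5.28% of estimated counts per library have decimals.

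Counts were scaled with TMM factors (edgeR 4.0.16) over all genes, and log2 ratios used a prior of 1 count. Estimated counts were rounded for exact conditional binomial (Clopper-Pearson) intervals at 95%. No group has a replicate, so no test was made. The floor of 3 counts is between 0.155 and 0.170 CPM. Effective length came from count, FPKM and summed counts. Ratios and intervals were run on simulated Poisson counts. These hold counting error and no spread between cultures, so the run checks the calculation only. The members and lists were chosen with earlier results of these data known, and Rpl32l was set apart from the core, and the length bins were made, after the table was seen. Named are all 9 genes outside the core, the 5 highest and 5 lowest ratios per comparison among members with at least 100 counts, the 5 highest and 5 lowest levels, members with a set role, and up to 3 genes per list with at least 5 TPM. Genes outside this rule were named after their values were seen: the members called less the median of their length bin, those with a seed site, and examples beside them. Sequences are from RefSeq (GRCm38.p6) and GENCODE M21; coding identity came from Biopython 1.88 alignments. Alternatives included DESeq2 1.42.0 size factors. Some genes of the lists are not reported by name here.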

Additional observations from a re-analysis of the deposited data

How the results depend on the processing

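No paired analysis was possible because each group has 1 library. For the same reason no library could be left out of a comparison, and depth limits only counting error. The core median of miR-26a -/- over wild type was 0.34 with total counts, 0.29 with DESeq2 size factors or the upper quartile, 0.31 with TMM factors made without ribosomal protein genes, and 0.14 by log2(TPM + 1). For negative control over untransfected cells these were -0.08, -0.11, -0.11, -0.11 and -0.03, and -0.09 over all members. For mimic over negative control they were -0.13 with total counts, -0.10 with the upper quartile, -0.11 by log2(TPM + 1) and -0.11 over all members. For mimic over untransfected cells they were -0.20, -0.20, -0.12 and -0.18 in that order. Less the median of the length bin, an alternative chosen after seeing the data, the core medians were 0.03, -0.02, -0.04 and -0.04 in the 4 comparisons. The signs of these medians were the same under every alternative run.

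By log2(TPM + 1), 23 core members were higher over wild type by the 1.2-fold rule, where 14.6% of all measured genes were. On that scale 2 were lower with negative control and 13 with mimic over untransfected cells, against 5.39% and 4.61%. With TMM factors made without ribosomal protein genes 8 were lower with negative control. The share of all measured genes was not computed for that setting, and it was 8.55% with the main factors. Less the median of the length bin 7 were higher and 2 lower over wild type, against 21.5% and 23.0% of all measured genes. By the same measure 2 were lower with negative control, against 8.59%. With mimic, 3 were lower over negative control and 8 over untransfected cells, against 7.29% and 7.35%. At a minimum of 5 CPM, which removes Rpl37rt and Rpl39l, 0 members passed the 2-fold rule in any comparison, and by log2(TPM + 1) 0 were lower with mimic over untransfected cells. With no minimum 1 was lower by 2-fold with negative control, and the share of all genes was not computed there. The cause of the other changes was not tested. The members' share was 12.884, 14.583, 14.246 and 13.325% of summed TPM, and without the 10 most counted other genes 3.240, 3.963, 3.790 and 3.560% of counts, in the wild-type, untransfected, negative-control and mimic libraries. Of 1324 values of named members under alternatives 1233 changed by no more than their counting interval reaches from its centre, and 91 changed by more. Of the values called by the 1.2-fold rule 0 changed sign among these 1324. The length-bin alternative is not part of them. Under it some called ratios over wild type did change sign, such as that of Rplp1, from 0.30 to -0.13. Whether each call was kept was not counted.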
